A study of Mus musculus with 3 samples.

Results

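The mural marker genes described here, which mark smooth muscle cells and pericytes of blood vessels, are Pdgfrb, Acta2, Tagln, Myh11, Cnn1, Rgs5, Cspg4, Notch3, Mcam and Myl9. These 10 genes were taken by symbol from the 42258 genes listed for each library. Each symbol was found, and all 10 genes reached a mean of 1 CPM (a count scaled to a fixed library total) over the 3 libraries, the minimum for a comparison. The libraries were made from gastrocnemius and plantaris muscle of male mice. For the aged EPA library, RNA was pooled from 6 C57BL/6J mice aged 87 weeks, which from 75 weeks of age had eaten a diet with 1 wt% EPA (eicosapentaenoic acid, a long-chain omega-3 fat) for 12 weeks. For the aged control library, RNA was pooled from 6 C57BL/6J mice of the same age, on an EPA-deprived diet over the same weeks. For the young library, RNA was pooled from 3 mice aged 24 weeks, whose strain is labelled C57BL/7J and whose diet is not given. Each group is thus 1 library, and differences between groups are given without a test, a p-value or an error between mice.

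Smooth muscle cells wrap arteries and veins and set vessel tone by contraction, and pericytes sit within the basement membrane of the capillaries that run along muscle fibres. Endothelial cells recruit these mural cells with the growth factor PDGF-B, which binds the receptor PDGFR-beta, and Notch ligands on endothelium act on NOTCH3. The contractile genes of smooth muscle are driven by serum response factor (SRF) and its partner myocardin through a short DNA element called the CArG box. Several of the 10 genes are also used by other cells, among them Pdgfrb by fibroblasts and Mcam by endothelium.

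RefSeq promoter sequences (build GRCm38.p6) were matched for 7 of the 10 genes, Acta2, Cnn1, Cspg4, Mcam, Myl9, Notch3 and Rgs5. Pdgfrb, Tagln and Myh11 were not matched. The 250 bases before the start of transcription were searched on both strands for the CArG box and for the same element with 1 centre base replaced by C or G. Matches were found in Acta2 and Myl9 and in none of the other 5 windows. The complete element was held by 1.47% of all 32851 RefSeq windows of this length and the replaced form by 7.24%. Both windows are shown because they hold the element of the contractile programme. They run 5′ to 3′ on the strand of the gene with the elements in capitals (Acta2 at chr19:34255374-34255623, minus strand, and Myl9 at chr2:156775214-156775463, plus strand).
Acta2: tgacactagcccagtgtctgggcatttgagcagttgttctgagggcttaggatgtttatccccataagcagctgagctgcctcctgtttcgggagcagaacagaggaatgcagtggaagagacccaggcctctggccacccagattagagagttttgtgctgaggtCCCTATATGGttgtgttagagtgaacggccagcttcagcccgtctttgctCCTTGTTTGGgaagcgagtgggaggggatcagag
Myl9: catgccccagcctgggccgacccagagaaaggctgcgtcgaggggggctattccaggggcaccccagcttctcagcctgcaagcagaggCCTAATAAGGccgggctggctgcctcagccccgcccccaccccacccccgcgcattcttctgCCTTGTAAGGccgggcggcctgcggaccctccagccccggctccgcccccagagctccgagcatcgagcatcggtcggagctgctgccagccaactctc

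The elements of Acta2 began 84 and 34 bases before the RefSeq start, both with 1 replaced base. The GENCODE gene model, which gives the gene positions below, starts further upstream for Acta2, at 34255590. Both elements lie inside the gene by that model. In Myl9 the complete element began 161 bases before the RefSeq start and the replaced form 99 bases before it. The gene model of Myl9 starts at 156775420, within the window but after both elements. A match describes letters and does not show that a factor binds there.

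The recovered depth was 55969822 counts in aged EPA, 57622886 in aged control and 57386394 in young. The deposited CPM were made with 5 divisors that vary from gene to gene, which shifts a log2 ratio by up to 0.08. Since the mural genes differed little between libraries, their log2 changes are given both from deposited CPM and from counts over each library's own total. The log2 change is the log2 ratio of CPM + 1, from deposited CPM where no scaling is named. The percent difference compares whole counts recovered from the CPM, over each library's own total, with an exact 95% counting interval. These intervals cover neither differences between mice nor between preparations, and PCR copies are not independent molecules. Skeletal fibre markers, which identify the labelled tissue, summed to 120568 CPM in aged EPA, 120979.8 CPM in aged control and 105597 CPM in young over 10 genes.

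Among themselves the mural genes kept nearly 1 order of levels per kilobase of exon in the 3 libraries. Rgs5, which encodes a regulator of G protein signalling that is abundant in pericytes, stood first with 67.3 CPM per kb in aged EPA, 78.4 in aged control and 81.1 in young. Acta2, the actin of smooth muscle, came next with 50.6 CPM per kb in aged EPA, 57.7 in aged control and 53.9 in young. Myl9, the regulatory light chain of smooth muscle myosin, followed with 38.8 CPM per kb in aged EPA, 40.7 in aged control and 43.5 in young. Tagln, which encodes the actin-binding protein transgelin, held the fourth place in every library, with between 26.5 and 27.1 CPM per kb. Pdgfrb, Mcam and Myh11 followed with between 7.09 and 9.55 CPM per kb and changed places between libraries, so no order is given among them. Notch3 was eighth in every library, with between 4.35 and 4.78 CPM per kb. Cnn1 and Cspg4 were last and also changed places, Cnn1 with 0.952 CPM per kb in aged EPA, 1.11 in aged control and 0.874 in young, and Cspg4 with 0.914 CPM per kb in aged EPA, 1.10 in aged control and 0.951 in young. Against the 12966 genes compared, the set ran from abundant to scarce. In aged EPA, 96.1% of genes had a lower level per kilobase than Rgs5, and 19.9% had a lower level than Cspg4.

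The deposited CPM of the 10 genes summed to 690.0 in aged EPA, 784 in aged control and 790.2 in young. Rgs5 alone took 44.3% of the counts of the set in aged EPA, 45.4% in aged control and 46.7% in young, so the sum follows this gene more than any other. Aged EPA was the lowest of the 3 libraries for 9 of 10 genes on deposited CPM, beside 37.5% of all genes compared, and for 8 of 10 on the library's own total, beside 30.0%. On deposited CPM the highest library was aged control for 6 genes, beside 33.7% of all genes, and young for 4, beside 41.4%.

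**Figure D1:**
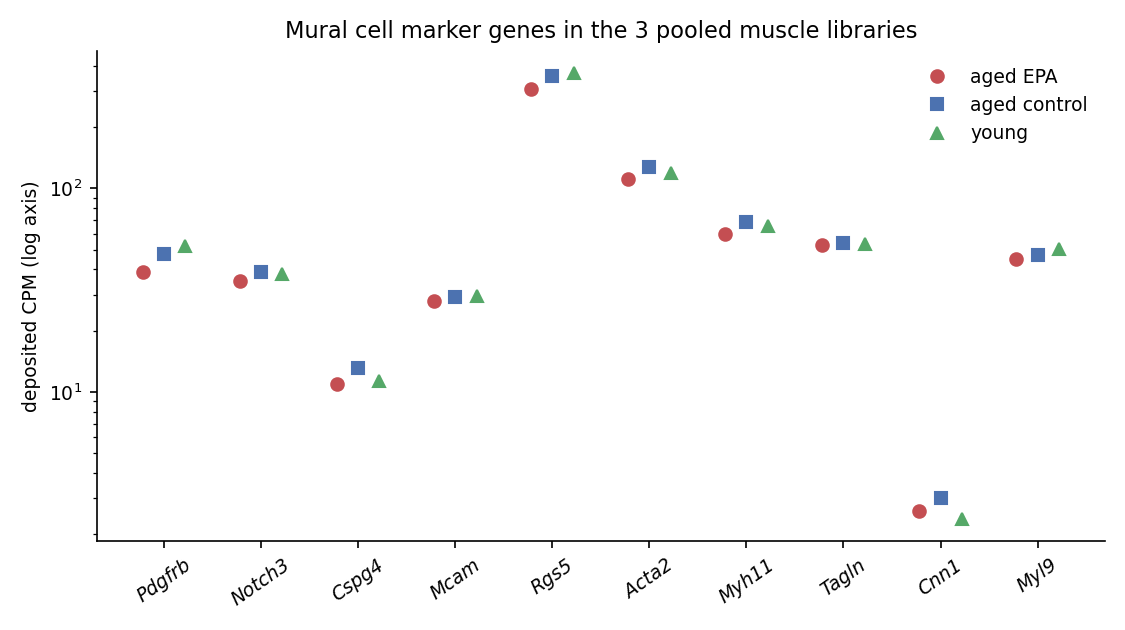
Deposited CPM (log axis) of the 10 mural genes, with 1 point for each pooled library and no error bars, since each group is 1 library. Levels run between 2.39 CPM for Cnn1 and 369 CPM for Rgs5, both in young, and the aged EPA point is the lowest of its gene for every gene but Cnn1.

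The first comparison asks what differs in old muscle when the diet holds EPA. All 10 mural genes had lower deposited CPM in aged EPA than in aged control, where 55.8% of the 12966 genes compared were lower. Their median log2 change was -0.17, beside -0.03 over all genes. On the library's own total, 9 of 10 were lower, beside 47.0% of all genes, with a median of -0.14 beside 0.01. The counting interval lay wholly on the lower side for 5 genes, Pdgfrb, Cspg4, Rgs5, Acta2 and Myh11, beside 20.9% of all genes, and on the higher side for none, beside 25.4%. Such shares of intervals, here and in the other comparisons, also depend on how abundant the genes are. The differences were small. Pdgfrb was the only member at least 1.2-fold lower in CPM + 1, as were 11.0% of all genes, and none was 1.5-fold lower, as were 1.91%. In bulk muscle, fewer mural cells, less RNA per mural cell and differences in other cells that use these genes cannot be told apart. With 1 library per group, differences between pools or preparations cannot be told apart from these either.

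Of the receptors, Pdgfrb (ENSMUSG00000024620, chromosome 18, 61045150 to 61085061, plus strand, on GRCm38 as all positions here) had 38.9 CPM in aged EPA, 47.4 CPM in aged control and 52.3 CPM in young. It was lowest in aged EPA and highest in young, with 2198 counts in aged EPA, 2656 in aged control and 3004 in young. Aged EPA differed from aged control by -14.8% (95% counting interval -19.5% to -9.81%). The log2 change was -0.28 on deposited CPM and -0.23 on own totals, and 9.79% of all genes had a lower one on deposited CPM. Notch3, the Notch receptor of mural cells (ENSMUSG00000038146, chromosome 17, 32120820 to 32166852, minus strand), had 35.2 CPM in aged EPA, 38.7 CPM in aged control and 38.1 CPM in young. Aged EPA was lowest and the other two libraries lay close together. Aged EPA differed from aged control by -4.52% (95% counting interval -10.2% to 1.47%), an interval that includes 0. The log2 change was -0.13 on deposited CPM and -0.07 on own totals.

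Of the surface proteins, Cspg4, which encodes the NG2 proteoglycan (ENSMUSG00000032911, chromosome 9, 56865033 to 56899870, plus strand), had 10.9 CPM in aged EPA, 13.1 CPM in aged control and 11.3 CPM in young. It was highest in aged control, and aged EPA and young lay close together. Aged EPA differed from aged control by -13.5% (95% counting interval -22.4% to -3.55%), on 617 counts in aged EPA, 734 in aged control and 652 in young. The log2 change was -0.24 on deposited CPM and -0.19 on own totals. Mcam, the adhesion molecule CD146 (ENSMUSG00000032135, chromosome 9, 44134469 to 44142727, plus strand), had 28.0 CPM in aged EPA, 29.3 CPM in aged control and 29.6 CPM in young. The 3 libraries were nearly level, and aged EPA differed from aged control by -4.02% (95% counting interval -10.5% to 2.88%), within counting error. The log2 change was -0.06 on deposited CPM and -0.06 on own totals.

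Rgs5 (ENSMUSG00000026678, chromosome 1, 169655501 to 169695813, plus strand) had 306 CPM in aged EPA, 356 CPM in aged control and 369 CPM in young. As the most abundant member, with 17315 counts in aged EPA, 19962 in aged control and 21183 in young, it had the narrowest interval of the set. It was lowest in aged EPA and highest in young, the same order as Pdgfrb, Myl9 and, on deposited CPM only, Mcam. Aged EPA differed from aged control by -10.7% (95% counting interval -12.5% to -8.86%). The log2 change was -0.22 on deposited CPM and -0.16 on own totals, and 15.2% of all genes had a lower one on deposited CPM.

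The contractile genes did not all differ alike. Acta2 (ENSMUSG00000035783, chromosome 19, 34241090 to 34255590, minus strand) had 111 CPM in aged EPA, 127 CPM in aged control and 118 CPM in young. Myh11, the heavy chain of smooth muscle myosin (ENSMUSG00000018830, chromosome 16, 14194535 to 14291372, minus strand), had 59.5 CPM in aged EPA, 68.2 CPM in aged control and 65.2 CPM in young. Both were lowest in aged EPA and highest in aged control. Aged EPA differed from aged control by -8.94% (95% counting interval -12.0% to -5.79%) for Acta2, on 6284 counts in aged EPA, 7105 in aged control and 6806 in young. For Myh11 it differed by -9.40% (95% counting interval -13.5% to -5.08%), close to Acta2. The log2 change of Acta2 was -0.19 on deposited CPM and -0.13 on own totals, and that of Myh11 was -0.19 on deposited CPM and -0.14 on own totals.

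Tagln (ENSMUSG00000032085, chromosome 9, 45929619 to 45936058, minus strand) had 52.6 CPM in aged EPA, 53.9 CPM in aged control and 53.5 CPM in young, level across the libraries. More of its exon bases lie opposite an antisense gene than those of any other member. Its log2 change was -0.04 on deposited CPM and 0.02 on the library's own total, so its direction depends on the scaling, and the percent difference of 1.35% (95% counting interval -3.68% to 6.65%) included 0. Myl9 (ENSMUSG00000067818, chromosome 2, 156775420 to 156781658, plus strand) had 45.0 CPM in aged EPA, 47.2 CPM in aged control and 50.6 CPM in young. It was highest in young, and its log2 change between the diets of -0.07 on deposited CPM became -0.002 on the library's own total. In counts, aged EPA differed from aged control by -0.135% (95% counting interval -5.43% to 5.45%). Cnn1, which encodes calponin, an actin-binding inhibitor of contraction (ENSMUSG00000001349, chromosome 9, 22099216 to 22109630, plus strand), had 2.61 CPM in aged EPA, 3.03 CPM in aged control and 2.39 CPM in young. It was the scarcest member by count, with 146 counts in aged EPA, 174 in aged control and 135 in young. Its difference between aged EPA and aged control, -13.6% (95% counting interval -31.2% to 8.27%), was not detectable at this depth. The log2 change of Cnn1 was -0.16 on deposited CPM and -0.16 on own totals.

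Of 45 pairs of members, 7 (15.6%) had counting intervals for the diets that did not overlap, beside 32.9% of all pairs of the genes compared, a share that also depends on how abundant the genes are. In each of the 7 the gene on the higher side was Tagln or Myl9. Pdgfrb, Acta2 and Rgs5 were apart from both of them, and Myh11 was apart from Tagln. Acta2 and Myl9, whose promoter windows both hold the CArG element in 1 or both forms, formed 1 of the 7 pairs.

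**Figure D2:**
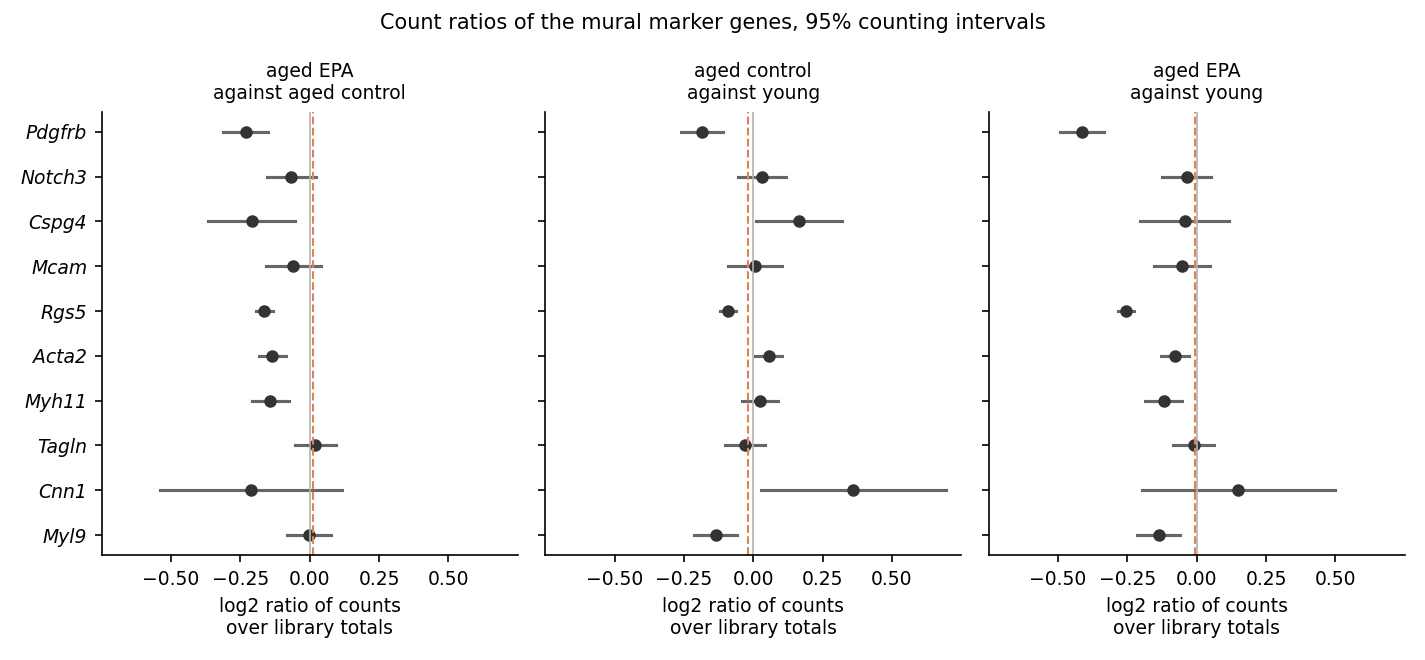
Log2 ratio of recovered counts over library totals for the 10 mural genes in the 3 comparisons. Points are ratios, bars are exact 95% intervals for counting error only, and the dashed line is the median log2 change over all 12966 genes (CPM + 1, own totals). Aged EPA against aged control has 5 intervals below 0, and the lowest point of any panel is Pdgfrb in aged EPA against young, at -0.41.

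The second comparison asks what differs between old and young muscle, where age, the labelled strain and the diet cannot be told apart. The mural genes lay on both sides. On deposited CPM, 4 of 10 were lower and 6 higher in aged control than in young, beside 52.4% lower and 47.5% higher of all genes. The median log2 change was 0.02 beside -0.01 over all genes, and 0.01 beside -0.02 on the library's own total. No member was 1.2-fold apart in CPM + 1, as were 27.1% of all genes. The counting interval was on the lower side for 3 members, beside 29.7% of all genes, and on the higher side for 3, beside 25.5%.

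The 3 members on the lower side were Pdgfrb, Myl9 and Rgs5. Pdgfrb, at 47.4 CPM in aged control against 52.3 CPM in young, differed by -11.9% (95% counting interval -16.5% to -7.20%). Myl9, at 47.2 CPM in aged control against 50.6 CPM in young, differed by -8.98% (95% counting interval -13.7% to -4.04%). Rgs5, at 356 CPM in aged control against 369 CPM in young, differed by -6.15% (95% counting interval -7.95% to -4.31%). The log2 change of Pdgfrb was -0.14 on deposited CPM and -0.18 on own totals, and that of Rgs5 was -0.05 on deposited CPM and -0.09 on own totals. Pdgfrb and Rgs5 stayed lower under every scaling tried and with the trend of the change with gene length subtracted. Filters cannot alter the log2 change of a given gene and are no test of it. The scalings other than own totals start from deposited CPM and keep its divisors, so only own totals test for these. For Myl9 the log2 change, -0.10 on deposited CPM and -0.13 on own totals, turned to 0.03 once the trend of the change with gene length was subtracted, so its direction depends on that correction.

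The 3 members on the higher side were Cnn1, Cspg4 and Acta2. Cnn1, at 3.03 CPM in aged control against 2.39 CPM in young, differed by 28.4% (95% counting interval 1.93% to 61.9%). Cspg4, at 13.1 CPM in aged control against 11.3 CPM in young, differed by 12.1% (95% counting interval 0.753% to 24.8%). Acta2, at 127 CPM in aged control against 118 CPM in young, differed by 3.96% (95% counting interval 0.551% to 7.49%). The lower ends of these 3 intervals lay near 0, so none was far beyond counting error. The log2 changes were 0.25 on deposited CPM and 0.26 on own totals for Cnn1, 0.19 on deposited CPM and 0.15 on own totals for Cspg4, and 0.10 on deposited CPM and 0.06 on own totals for Acta2. Myh11, Notch3, Mcam and Tagln had intervals that include 0, with differences between -2.10% for Tagln and 2.11% for Notch3. Of these, Tagln and Mcam changed direction with the scaling. The log2 change was 0.01 on deposited CPM and -0.03 on own totals for Tagln, and -0.01 on deposited CPM and 0.006 on own totals for Mcam. Myh11, at 0.06 on deposited CPM and 0.02 on own totals, and Notch3, at 0.02 on deposited CPM and 0.03 on own totals, were higher in aged control on both scalings.

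In this comparison 17 of 45 pairs of members (37.8%) had intervals that did not overlap, beside 42.8% of all pairs of genes. Members were thus apart no more often than genes in general. Pdgfrb, Rgs5 or Myl9 was on the lower side of each of them. Pdgfrb was below every other member except Rgs5 and Myl9, which it overlapped.

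Aged EPA against young shares both libraries with the other comparisons, and its log2 changes are the sums of theirs, so it is no independent result. On deposited CPM, 9 of 10 members were lower in aged EPA than in young, beside 56.7% of all genes, with a median log2 change of -0.10 beside -0.04. The interval was on the lower side for 5 members, beside 27.4% of all genes, and on the higher side for none, beside 26.9%. Pdgfrb differed by -25.0% (95% counting interval -29.0% to -20.7%). Rgs5 differed by -16.2% (95% counting interval -17.9% to -14.5%). These 2 were the members at least 1.2-fold lower in CPM + 1, as were 16.2% of all genes, and both were lower at each step. Pdgfrb had an interval below that of each of the other 9 members. The share of all pairs of genes that were apart was not calculated for this comparison, so this separation has no baseline. Myl9 differed by -9.10% (95% counting interval -13.8% to -4.13%), and its log2 change in aged EPA against young, -0.16, became -0.07 with the trend with gene length subtracted. Myh11, at -7.92% (95% counting interval -12.1% to -3.51%), and Acta2, at -5.33% (95% counting interval -8.54% to -2.02%), had intervals on the lower side in aged EPA, and not in aged control, against young. Cnn1 was the only member higher in aged EPA than in young, by 10.9% (95% counting interval -12.9% to 41.2%), which includes 0.

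**Figure D3:**
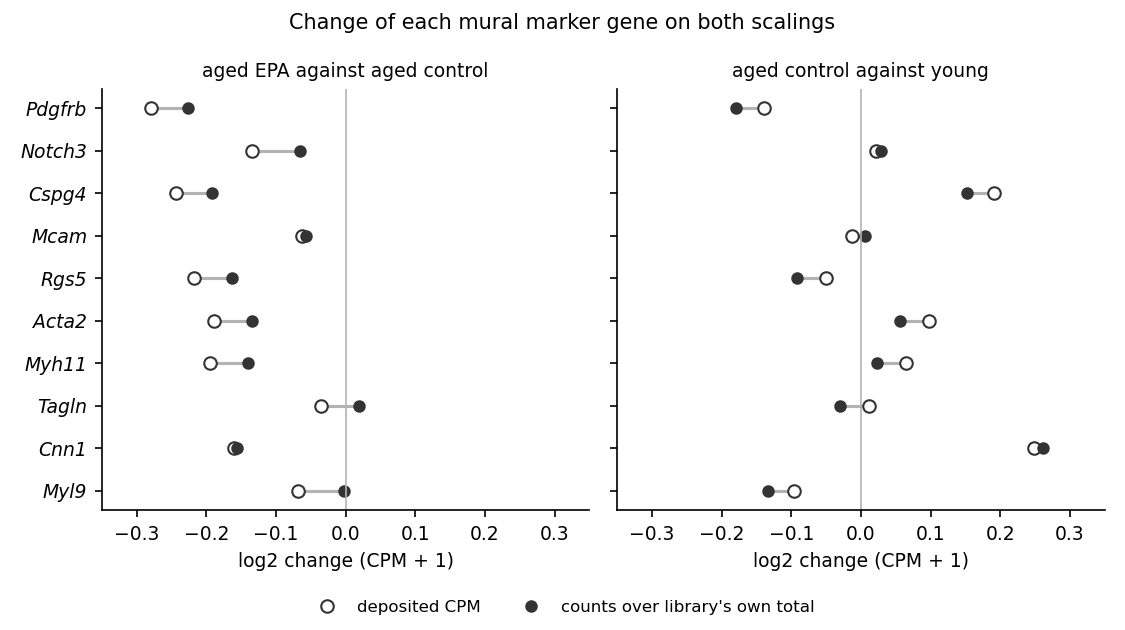
Log2 change of CPM + 1 of each mural gene from deposited CPM (open circles) and from recovered counts over the library's own total (filled circles). Between aged EPA and aged control the median of the 10 genes is -0.17 on deposited CPM and -0.14 on own totals, and Tagln lies on both sides of 0, at -0.04 on deposited CPM and 0.02 on own totals.

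Genes of the same pathways were counted on deposited CPM, beside the shares and medians over all genes given above for each comparison. Of the PDGF genes beside Pdgfrb, 2 of 5 were lower in aged EPA than aged control (median log2 change 0.004, or 0.01 on own totals), and 3 of 5 were lower in aged control than in young (median -0.05, or -0.04). Pdgfb, the ligand of the receptor that Pdgfrb encodes, had 32.0 CPM in aged EPA, 31.9 CPM in aged control and 34.1 CPM in young. Its difference between the diets was within counting error, at 1.05% (95% counting interval -5.35% to 7.89%), where Pdgfrb was lower. Pdgfra, the related receptor gene that marks fibroblasts, had 42.5 CPM in aged EPA, 43.4 CPM in aged control and 41.0 CPM in young. Its difference between the diets was also within counting error, at -1.67% (95% counting interval -7.08% to 4.05%), an interval that does not overlap that of Pdgfrb. Pdgfa, which encodes another PDGF ligand, had 15.7 CPM in aged EPA, 21.3 CPM in aged control and 22.0 CPM in young. Like Pdgfrb it was lower in aged EPA than aged control, at -22.7% (95% counting interval -29.2% to -15.7%).

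Of the Notch partners and targets of Notch3, 13 of 15 were lower in aged EPA than aged control (median log2 change -0.09, or -0.06 on own totals), and 8 of 15 were lower in aged control than in young (median -0.04, or -0.02). Jag1, a Notch ligand of the vessel wall, had 8.98 CPM in aged EPA, 11.6 CPM in aged control and 12.7 CPM in young. It was lowest in aged EPA, at -22.1% (95% counting interval -30.7% to -12.4%) against aged control, where the interval of Notch3 includes 0. Jag1 was chosen after its value was seen. Of the other Notch ligands listed, Jag2 had 26.3 CPM in aged EPA against 27.5 in aged control, and Dll4 11.4 against 12.2. Dll1 went the other way, with 3.75 CPM in aged EPA against 3.19 in aged control. Heyl, a Notch target of mural cells, had 10.9 CPM in aged EPA, 11.0 CPM in aged control and 15.8 CPM in young. It was highest in young and differed by 0.0305% (95% counting interval -10.6% to 11.9%) between the diets, within counting error.

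Other contractile and channel genes of smooth muscle were set beside Acta2, Myh11, Tagln, Cnn1 and Myl9. Of these, 17 of 21 were lower in aged EPA than aged control (median log2 change -0.18, or -0.12 on own totals), and 4 of 21 were lower in aged control than in young (median 0.15, or 0.12). By count, between the diets 12 intervals lay on the lower and 2 on the higher side, and against young 0 on the lower and 9 on the higher side. Cald1, which encodes the actin-binding protein caldesmon, had 47.5 CPM in aged EPA, 63.8 CPM in aged control and 52.4 CPM in young. It was highest in aged control and lower in aged EPA, at -22.0% (95% counting interval -25.8% to -18.0%), with an interval apart from those of Acta2 and Myh11. Between the diets 4 of the 21 went the other way, with the largest log2 changes in Des (0.17) and Sncg (0.13). Des alone had 4130 CPM in aged EPA, 3678 CPM in aged control and 3183 CPM in young. The whole list summed to 5183 CPM in aged EPA, 4874 CPM in aged control and 4221 CPM in young. How far skeletal fibres add to these values was not tested. Actg2, the actin of visceral smooth muscle, was under a mean of 1 CPM and was not compared.

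Other genes of pericytes were set beside Rgs5 and Cspg4. Of these, 12 of 20 were lower in aged EPA than aged control (median log2 change -0.06, or -0.05 on own totals), and 13 of 20 were lower in aged control than in young (median -0.13, or -0.12). By count, between the diets 6 intervals lay on the lower and 1 on the higher side, and against young 10 on the lower and 4 on the higher side. Kcnj8, a potassium channel gene of pericytes, had 17.5 CPM in aged EPA, 20.2 CPM in aged control and 24.1 CPM in young. Its order of libraries was that of Rgs5, Pdgfrb, Myl9 and, on deposited CPM only, Mcam. Its difference was -10.1% (95% counting interval -17.5% to -2.03%) between the diets and -18.6% (95% counting interval -24.8% to -11.9%) in aged control against young. Anpep, the aminopeptidase CD13, had 18.3 CPM in aged EPA, 20.9 CPM in aged control and 12.0 CPM in young and was lowest in young, unlike Rgs5. Between the diets 8 of the 20 were higher in aged EPA, with the largest log2 changes in Higd1b (0.23) and Steap4 (0.10). Higd1b was scarce, with 91 counts in aged EPA and 68 in aged control.

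Of the regulators of the contractile members, several of which skeletal fibres use too, 8 of 13 were lower in aged EPA than aged control (median log2 change -0.02, or 0.004 on own totals), and 3 of 13 were lower in aged control than in young (median 0.17, or 0.18). Srf, which encodes the factor that binds the CArG box, had 116 CPM in aged EPA, 103 CPM in aged control and 89.7 CPM in young. It was highest in aged EPA, where Acta2 and Myh11 were lowest. Mrtfb, a coactivator of SRF, had 23.3 CPM in aged EPA, 39.9 CPM in aged control and 27.9 CPM in young. Like Acta2 and Myh11 it was highest in aged control and lowest in aged EPA, at -38.6% (95% counting interval -42.7% to -34.3%) between the diets. Myocd, which encodes myocardin, was under the minimum for comparison.

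Further lists of vessel wall genes were counted in the same way. Of angiopoietin and TGF-beta genes of mural recruitment, 11 of 15 were lower in aged EPA than aged control (median log2 change -0.07, or -0.02 on own totals), and 8 of 15 were lower in aged control than in young (median -0.05, or -0.09). Of basement membrane and elastic fibre genes of vessels, 12 of 16 were lower in aged EPA than aged control (median log2 change -0.08, or -0.04 on own totals), and 7 of 16 were lower in aged control than in young (median 0.08, or 0.08). On own totals, 8 of 15 mural recruitment genes and 9 of 16 basement membrane genes were lower between the diets, beside 47.0% of all genes. The same count was 6 of 13 for the regulators, 11 of 15 for the Notch genes, 16 of 21 for the other contractile genes and 11 of 20 for the other pericyte genes.

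**Figure D4:**
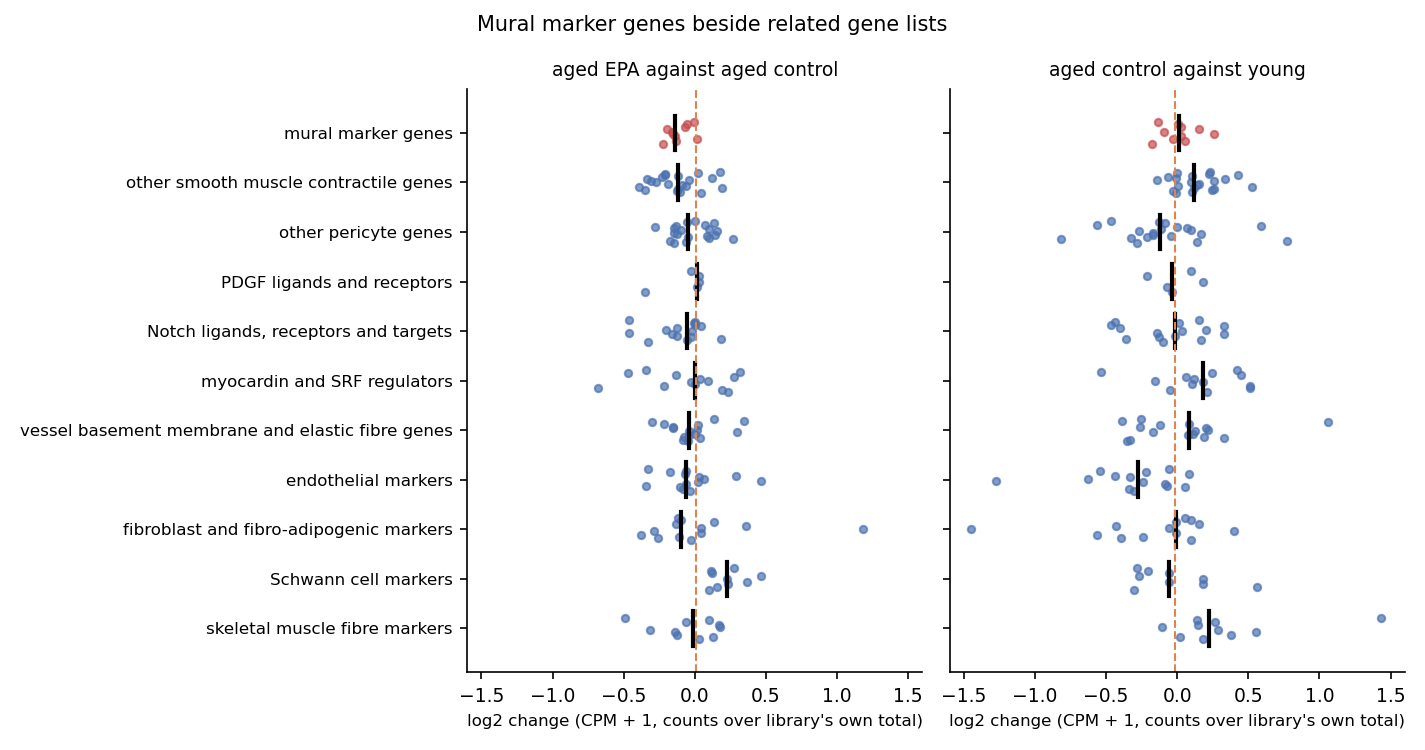
Log2 change of CPM + 1 on each library's own total for the 10 mural genes (red) and genes of related lists (blue), 1 point per gene, with the median of each list as a black bar and the median over all 12966 genes as a dashed line. The mural genes have a median of -0.14 between the diets and 0.01 in aged control against young, where endothelial markers have -0.06 and -0.27.

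Markers of other cells of the tissue also differed between the libraries. Endothelial markers, of the cells that mural cells wrap, summed to 685 CPM in aged EPA, 765 CPM in aged control and 909 CPM in young over 14 genes. Of these, 11 of 14 were lower in aged EPA than aged control (median log2 change -0.11, or -0.06 on own totals), and 12 of 14 were lower in aged control than in young (median -0.29, or -0.27). The median of the mural genes was lower between the diets but not in aged control against young. That of the endothelial markers was lower in both comparisons. Single mural genes, Pdgfrb, Myl9 and Rgs5, also had intervals on the lower side in aged control against young. Of the other pericyte genes, 13 of 20 were lower there, with a median of -0.13. Fibroblast markers summed to 3259.8 CPM in aged EPA, 3206 CPM in aged control and 3386 CPM in young over 13 genes. Of these, 10 of 13 were lower in aged EPA than aged control (median log2 change -0.10, or -0.09 on own totals), and 7 of 13 were lower in aged control than in young (median -0.02, or -0.01). Schwann cell markers summed to 209 CPM in aged EPA, 190.1 CPM in aged control and 189 CPM in young over 10 genes. All 9 Schwann markers that could be compared were higher in aged EPA than in aged control (median 0.17, or 0.23 on own totals), beside 44.2% of all genes, where the mural genes were lower. In aged control, 6 of the 9 were lower than in young (median -0.08, or -0.06). Satellite cell and regeneration markers summed to 166 CPM in aged EPA, 181 CPM in aged control and 173 CPM in young over 9 genes. Of those compared, 6 of 8 were lower in aged EPA than aged control (median log2 change -0.09, or -0.04 on own totals), and 4 of 8 were lower in aged control than in young (median 0.02, or 0.001). Macrophage and leukocyte markers summed to 279 CPM in aged EPA, 273 CPM in aged control and 259 CPM in young over 8 genes. Of these, 3 of 8 were lower in aged EPA than aged control (median log2 change 0.03, or 0.07 on own totals), and 2 of 8 were lower in aged control than in young (median 0.21, or 0.17). Of skeletal fibre markers, 6 of 10 were lower in aged EPA than aged control (median log2 change -0.07, or -0.01 on own totals), and 2 of 10 were lower in aged control than in young (median 0.26, or 0.22). On own totals, 9 of 14 endothelial and 8 of 13 fibroblast markers were lower between the diets, beside 47.0% of all genes. The same count was 5 of 8 for satellite cell, 2 of 8 for macrophage and 5 of 10 for skeletal fibre markers. The part of these cells in the mural values was not tested.

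Several mural genes have relatives that fibres or other cells express, and the sequence they share was measured on GENCODE M21 transcripts (GRCm38). The coding sequences of Acta2 and Acta1, the actin of the skeletal fibre, were identical at 85.4% of 1131 aligned bases. No window of 50 bases in Acta2 was found in Acta1, but 7 of 2146 were found in Actg1, a nonmuscle actin, and in further genes, and none of 100 bases in any other gene. Actg1 had 177 CPM in aged EPA, 174 CPM in aged control and 174 CPM in young. Acta1 had 35589 CPM in aged EPA, 36148 CPM in aged control and 31001 CPM in young, a log2 change of -0.02 between the diets beside -0.19 for Acta2. The coding sequences of Myl9 and Myl12a, a nonmuscle light chain, were identical at 85.7%, and Myl9 shared no window of 50 bases with any other gene. Myh11 shared 0.340% of its windows of 50 bases with other genes, the nonmuscle myosins Myh9 and Myh10, and none of 100 bases. Among the paralogs compared, 12 of 18 were lower in aged EPA than aged control (median log2 change -0.06), beside 55.8% of all genes. On own totals 10 of 18 were lower (median -0.05), beside 47.0% of all genes.

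Tagln is the member whose reads are least certain. Of its exon bases, 62.4% lie opposite the antisense gene Gm48529 and 5.43% opposite Pcsk7. Gm48529 is not among the genes listed, so its level is not known. Pcsk7 had 10.9 CPM in aged EPA, 12.4 CPM in aged control and 10.1 CPM in young. Notch3 lies opposite the antisense gene Gm17276 over 6.03% of its exon bases, and Mcam opposite Gm10687 over 0.507%. Gm17276 had 0.214 CPM in aged EPA, 0.470 in aged control and 0.390 in young. Gm10687 had 0.874 CPM in aged EPA, 0.957 in aged control and 1.13 in young. Whether the counting used strand is not given in the sources used here, and without strand such reads cannot be told apart. No exon of another gene overlaps those of the other 7 members.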

How the data were processed

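The deposited values are CPM per gene, as the authors calculated them, in 1 table for each pooled library. Per the submitters' processing notes, HISAT2 2.1.0, StringTie 1.3.4d and R 3.5.0 were used with mouse build GRCm38 (mm10). The role of each tool, the counting of strand and the annotation are not given in the sources used here. The 10 genes and the other gene lists were chosen with earlier results of these data known, and 1 of the lists is not reported here. Every CPM above 0 became a whole count when multiplied by 1 of 5 divisors (56034275 to 57687235), within 3.03e-09 of a whole number. Deposited CPM differed from CPM over the library's own total by between -2.98% and 2.84%. Rows of 1 symbol were added up, which concerned 33 rows. Comparisons used the 12966 genes whose mean reached 1 CPM, with a pseudocount of 1 CPM. Ratios of recovered counts carry exact 95% Clopper-Pearson intervals, conditional on the sum of both counts. A count of 0 allows up to 3 counts, or 0.0536 CPM in aged EPA, 0.0521 in aged control and 0.0523 in young. Gene positions, exon lengths and overlaps came from GENCODE M21, in which 42256 of the 42258 gene IDs were found. Besides the 10 genes, up to 4 genes per list and comparison could be named, those with the largest changes in either direction, and relatives of the 10 genes. Jag1, Jag2, Dll4 and Srf were named outside this rule, after their values were seen, for their roles beside Notch3 and Acta2. Other pseudocounts, filters, scalings, treatment of repeated symbols and a correction for gene length were tried. The scripts were tested on simulated data. Python 3.11.15, numpy 2.4.6, pandas 2.3.3, scipy 1.17.1, statsmodels 0.14.6 and Biopython 1.88 were used.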

Additional observations from a re-analysis of the deposited data

How the results depend on the processing

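No paired analysis was possible because each group is 1 library, and for the same reason no library could be left out. All 60 recalculated medians and counts of the mural genes stayed within a tolerance, which was 1.5 times for counts and, for log2 medians, the median half-width of the counting intervals of the 10 genes (0.080 for aged EPA against aged control, 0.076 for aged control against young and 0.078 for aged EPA against young). This tolerance is wide beside medians this close to 0. Some of these values could not move. Every member passes the filter and has 1 row, so lifting the filter or treating repeated symbols otherwise returned identical values. The stricter filter only left out Cnn1. The median log2 change of the mural genes ranged over the alternatives between -0.19 and -0.14 for aged EPA against aged control, between 0.002 and 0.03 for aged control against young, and between -0.11 and -0.06 for aged EPA against young. The number of members lower was 9 to 10, 3 to 5 and 8 to 9 in the same comparisons. The log2 change of Tagln between aged EPA and aged control ran from -0.05 to 0.02. In aged control against young, subtracting the trend with gene length reversed the log2 change of Myl9 (0.030) and of the other genes C1qa (0.040), Fbn1 (-0.014), Lyz2 (0.019), Mylpf (0.012), Vwf (-0.030) and Ckm (0.038). Ckm also reversed with scaling by the median of ratios (0.0097), with TMM (0.012) and with recovered counts over the library's own total (0.018). The cause was not tested. Another 9 recalculated log2 changes of single members moved beyond the half-width of their own interval and kept their sign. With counts over own totals these were Acta2 (-0.13) and Rgs5 (-0.16) between the diets and Rgs5 (-0.09) in aged control against young. With the length trend subtracted they were Rgs5 (-0.19) between the diets, Acta2 (0.16) and Tagln (0.09) in aged control against young and Myl9 (-0.07) in aged EPA against young, and with median of ratios and TMM Rgs5 (-0.23 for both) in aged EPA against young. Depth limits Cnn1, the member with the fewest counts and the widest intervals.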
